A study of Homo sapiens with 12 samples.

Results

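The 500 highest-scoring peaks of a G-quadruplex pull-down were chosen by the score that a list of 51446 peaks gives each of them, with ties kept in list order. Annealed genomic DNA of HEK 293T cells had been captured with a small molecule, and the list held the peaks found in both replicates. HEK 293T cells derive from human embryonic kidney and express the large T antigen of the SV40 virus. The 12 samples of the series formed 6 groups of 2. The pull-down from annealed genomic DNA and its input were 2 of them, both from cells with no treatment. The other 4 were RNA samples. In 3 of them cells had received PDP at 1 µM, for 3 h, for 24 h or for 72 h, and in the last they had received DMSO for 3 h, which was the only DMSO group. No structure was attached to PDP, which is a code name, and the labels call the replicates biological without saying whether they came from separate cultures. The identity of the line was not checked against its expression.

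A G-quadruplex is a structure of stacked guanine tetrads, formed by a strand that carries several runs of guanine close together. Such runs are known to be frequent in gene promoters, in telomeric and minisatellite repeats, in ribosomal DNA and in the control region of mitochondrial DNA. The labels give genomic DNA as the captured material and call it annealed, without further detail. The list gives 1 score a peak, averaged over both replicates. Its unit is not stated, nor is whether it is taken relative to the input, so scores, those of mitochondrial and ribosomal DNA included, may be uncorrected for the input. The score chose the members, so every value of it below is a description with no test. With 1 pooled list no test was run, and shares are given with exact binomial (Clopper-Pearson) intervals at 95%, which cover counting error only and treat neighbouring peaks as independent. The next 500 peaks by score and the rest of the list, 50946 peaks, were measured in the same way.

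The sequence of the peaks themselves was not used here, and the promoter windows that members overlapped show what letters lay under part of them. The windows run from 250 bases before to 50 bases after a gene start, as RefSeq gives them on GRCh38.p14. Only 3 members overlapped such a window, and they are printed 5′ to 3′ on the strand of the gene, with the overlapped bases in capitals. LOC101929014 lies at chr9:125410211-125410510 on the plus strand and shared 61 bases with the peak ranked 60. MEIS3, which encodes a homeobox transcription factor, has its window at chr19:47422184-47422483 on the minus strand and shared 178 bases with the peak ranked 185. LOC105378123 has its window at chr6:167169931-167170230 on the minus strand and shared 22 bases with the peak ranked 211.
LOC101929014: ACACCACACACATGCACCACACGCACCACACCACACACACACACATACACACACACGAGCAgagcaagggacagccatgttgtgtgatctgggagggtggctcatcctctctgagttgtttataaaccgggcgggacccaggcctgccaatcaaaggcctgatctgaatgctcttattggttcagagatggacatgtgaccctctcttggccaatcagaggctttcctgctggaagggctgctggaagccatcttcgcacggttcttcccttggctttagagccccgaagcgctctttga
MEIS3: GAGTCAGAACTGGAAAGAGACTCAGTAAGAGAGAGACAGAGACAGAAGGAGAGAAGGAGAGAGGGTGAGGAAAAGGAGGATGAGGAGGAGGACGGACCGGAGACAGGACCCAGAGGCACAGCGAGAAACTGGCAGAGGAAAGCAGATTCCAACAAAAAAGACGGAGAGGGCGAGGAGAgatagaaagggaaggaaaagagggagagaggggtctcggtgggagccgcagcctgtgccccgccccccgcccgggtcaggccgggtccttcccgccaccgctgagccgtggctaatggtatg
LOC105378123: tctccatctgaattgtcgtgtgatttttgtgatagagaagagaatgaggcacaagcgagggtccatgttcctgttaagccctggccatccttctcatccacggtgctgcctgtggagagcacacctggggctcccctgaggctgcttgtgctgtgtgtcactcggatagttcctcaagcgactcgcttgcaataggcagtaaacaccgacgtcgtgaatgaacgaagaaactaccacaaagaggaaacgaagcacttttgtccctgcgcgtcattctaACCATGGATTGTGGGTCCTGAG

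The overlapped stretches differed in their letters. In the LOC101929014 stretch 90.2% of bases were C or A on the printed strand, and neither strand held a run of 3 guanines. The MEIS3 stretch was 81.5% G or A, with 39.9% G and 2 runs of 3 guanines on the printed strand. The 22 bases at LOC105378123 held 1 such run. The motif searched was 4 runs of GGG or longer with 1 to 7 bases of any kind between runs, on either strand, where the other strand reads CCC. It was in 0 of these 3 windows, against 2 of 7 windows overlapped by the next 500 peaks, 63 of 198 overlapped by the rest, and 8778 of all 35116 windows (25%). With 3 windows the interval of the members' share reaches 70.8%, and the peaks extend past the windows, so the letters of whole members are not shown by it.

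For contrast, the motif-holding windows among those overlapped by the next 500 peaks are printed, both chosen after their letters were seen. Capitals mark the first match of the motif on the printed strand, and later matches stay in lower case. TEAD2, which encodes a transcription factor of the Hippo pathway, has its window at chr19:49361468-49361767 on the minus strand, and VSTM2A has its window at chr7:54545911-54546210 on the plus strand. The peak ranked 752 covered the whole VSTM2A window. The peak ranked 587 covered bases 236 to 300 of the TEAD2 window, which lie after the capitals, so that first match was not under the peak. A later match, in lower case, starts before base 236 and runs on under the peak.
TEAD2: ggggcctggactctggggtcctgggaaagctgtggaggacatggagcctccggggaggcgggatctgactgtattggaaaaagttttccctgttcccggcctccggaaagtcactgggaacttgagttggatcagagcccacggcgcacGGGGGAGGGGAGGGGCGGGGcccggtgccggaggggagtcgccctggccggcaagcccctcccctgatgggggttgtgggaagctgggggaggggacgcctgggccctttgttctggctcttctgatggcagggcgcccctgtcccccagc
VSTM2A: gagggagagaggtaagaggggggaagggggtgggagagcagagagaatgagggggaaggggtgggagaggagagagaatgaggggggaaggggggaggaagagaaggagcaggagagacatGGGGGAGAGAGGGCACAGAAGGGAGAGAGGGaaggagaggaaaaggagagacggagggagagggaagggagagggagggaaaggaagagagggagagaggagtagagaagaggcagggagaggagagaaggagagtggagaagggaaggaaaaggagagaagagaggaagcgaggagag

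The members' scores spanned 38.45 to 7301.7. Their median was 45, against 34.6 for the next 500 and 10.9 for the rest. A few peaks stood far above the others. The highest scored 4.75 times the second, and the second 3.69 times the third. Of all peaks 2 scored over 1000, 5 over 200, 14 over 100 and 145 over 50. The members held 5.06% of the summed score of the list. Nothing separated the last members from the first peaks left out. A member at the limit (chr19:48270362-48270809, within ZNF114) scored 38.45. The first 2 peaks left out (chr20:31986571-31986973 and chr12:57191617-57192224) scored 38.40 and 38.35.

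**Figure D1:**
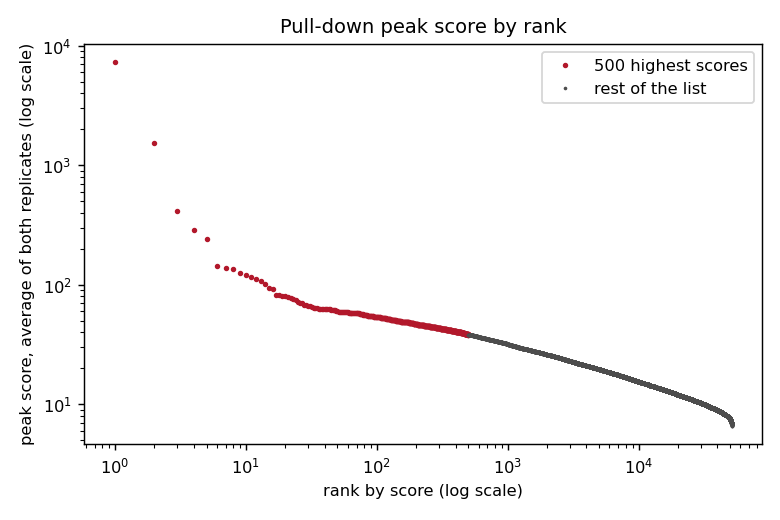
Score of each peak, as the average over both replicates in the deposited list, against its rank, with both axes on a log scale. Red points are the 500 highest scores and grey points the rest of the list. The first 5 peaks lie above 200, and the curve has no step at rank 500.

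The highest score belonged to the mitochondrial genome. Its peak, 7301.7, ran from base 212 to base 766 of that genome and was the only mitochondrial peak of the list. It began 365 bases before TRNF, which encodes the transfer RNA for phenylalanine. From there it covered all 71 bases of TRNF and the first 119 bases of RNR1, which encodes the small ribosomal RNA of mitochondria. The bases before TRNF belong to the control region, where a guanine-rich block is known to form a G-quadruplex during transcription. The list holds no value of the input for this stretch.

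Ribosomal DNA held most of the other extreme scores. Its repeat unit consists of the 45S transcription unit, which gives the 18S, 5.8S and 28S ribosomal RNAs, and a long intergenic spacer. RefSeq places 5 copies of the 45S unit on this build, RNA45SN1, RNA45SN2 and RNA45SN3 on the short arm of chromosome 21, RNA45SN4 on the contig KI270733.1 and RNA45SN5 on the contig GL000220.1. From 5 kb before to 40 kb after a copy the list had 16 peaks, of which 12 were members. These made up 9 of the 15 highest scores of the list. None of the 16 peaks had its centre inside a 45S unit (0 of 16), and all 12 members lay after the end of one. The list holds only peaks found in both replicates, so peaks left out of it could still lie inside a unit.

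The peaks near these copies can be placed by the distance from the end of the 45S unit to the peak's centre. After RNA45SN2 members stood at 0.702 kb with a score of 416.65, at 9.43 kb with 120.35 and at 15.2 kb with 1538.4, which is the second highest score of the list. After RNA45SN3 they stood at 3.13 kb with 54.4 and at 18.0 kb with 289.75, where the peak lay within the pseudogene CDC27P10. RNA45SN1 had 1 member, at 3.04 kb with 46.45. Each of these copies had a member within 3.13 kb of its end, although the assembled copies did not share 1 pattern of peaks.

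Both contig copies also had members close behind the unit and far out in the spacer. RNA45SN4 had members at 0.671 kb (112.5), 2.80 kb (135.05), 3.73 kb (143.4) and 28.9 kb (94.4). RNA45SN5 had them at 1.36 kb (116.15) and 27.3 kb (40.55). Of the 4 peaks of these windows that were not members, 1 lay 2.32 kb after RNA45SN3 at rank 911. The other 3 lay before a unit, at 3.12 kb before RNA45SN4 and at 3.29 kb and 2.37 kb before RNA45SN5, with ranks from 1434 to 39050. Near-identical copies share reads, so how the score divides among these 5 copies depends on how such reads were placed, which is not stated.

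**Figure D2:**
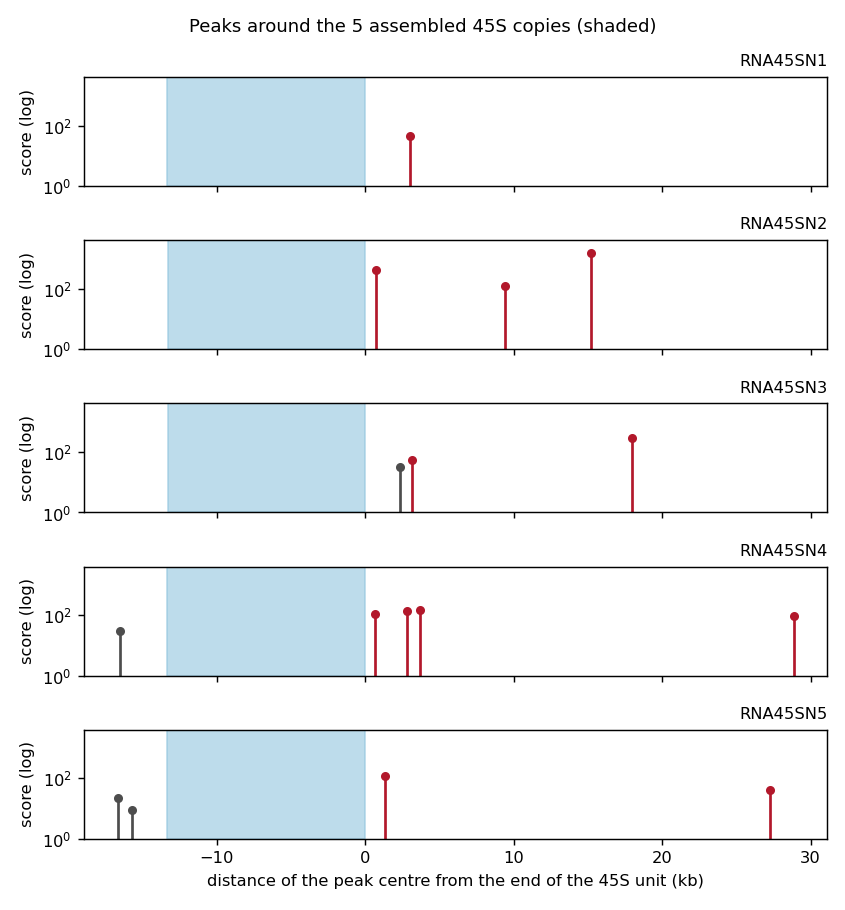
Score (log scale) against the distance in kb of the peak centre from the end of the 45S unit, in 1 panel for each of the 5 copies. Red marks are members, grey marks other peaks, and the shaded span is the 45S unit, which holds no peak of the list. All 12 members lie to its right, in a window that runs from 5 kb before to 40 kb after a copy.

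Outside the ribosomal copies, the short arms of the acrocentric chromosomes added little. Of the 37 peaks in the short arms of chromosomes 13, 14, 15, 21 and 22, 17 lay on 21 and 20 on 22, with 0 on the other 3. The 7 members among them were the 6 on chromosome 21 beside the 45S copies and 1 on chromosome 22 (chr22:11040809-11041211, rank 209). This was 1.40% of members (0.565 to 2.86), against 1.00% of the next 500 and 0.0589% of the rest. The counts depend on the limits set for the arms, 16 Mb on 13 and 14, 17 Mb on 15, 10 Mb on 21 and 12 Mb on 22. The member at chr21:10432136-10432538 (rank 136) lay just past the limit and is not counted. Whether it belongs to the arm was not checked.

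Contigs that are not placed on a chromosome held 14 members, or 2.80% (1.54 to 4.65). They held 0.600% of the next 500 and 0.0981% of the rest, so that 14 of the 64 contig peaks were members. Of the 25 highest scores 6 were on contigs. Peaks lay on 34 contigs and members on 8 of them. KI270733.1 had 4 members of 5 peaks and GL000220.1 had 2 of 4, which are the ribosomal contigs. The other 8 members were 2 of 6 peaks on KI270744.1, 2 of 5 on KI270442.1 and 1 each on KI270718.1, KI270732.1, GL000008.2 and KI270544.1. KI270718.1 gave the highest of these, with 77.4 at rank 22.

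The other members of the first 10 were on chromosomes 2, 10 and 5. The peak ranked 5, with 242.15, lay at chr2:32916116-32916518 in the locus of LINC00486, a long non-coding RNA gene. The peak ranked 7, with 139.55, lay at chr10:46525844-46526363 in a locus that also spans NPY4R, a receptor gene of the neuropeptide Y family, and ANXA8L1, an annexin gene. The peak ranked 9, with 126.3, lay at chr5:176591694-176592096, in CDHR2, which encodes a cadherin of the intestinal brush border. It was 49.4 kb into the gene, and a second member with 48.5 stood 46.0 kb into it.

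On the standard chromosomes, which held 485 members (97.0%) against 99.4% of the next 500 and 99.9% of the rest, the members were spread unevenly. Chromosome 21 had 44 members among 1069 peaks, or 4.12% (3.01 to 5.49), where the whole list has 500 of 51446. Chromosome 19 had 35 of 1194, or 2.93% (2.05 to 4.05). Chromosome 7 had 52 of 2904 (1.79%) and chromosome 9 had 32 of 2001 (1.60%). Of the next 500 peaks, 15 lay on chromosome 21, 41 on 19, 40 on 7 and 19 on 9. Chromosome 19 was thus as frequent just below the members, and chromosome 21 was not. At the low end, chromosome 3 had 5 members of 3058 peaks (0.164%), X had 7 of 2951 (0.237%) and 13 had 4 of 1201 (0.333%), while Y had 0 of 2. The next 500 had 10 peaks on chromosome 3, 13 on X and 7 on 13. The intervals of chromosomes 21 and 19 did not overlap those of chromosomes 3, 13 and X. These were picked as the highest and lowest shares after all were seen, so the gap between them is no test.

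The surplus on chromosome 21 was not that of its ribosomal arm alone. Of its members 35 lay from 30 Mb on, among 662 peaks (5.29%), with scores of 39.6 to 92.9. Only 1 member was among the 352 peaks between 15 and 30 Mb, and 8 were among the 55 before 15 Mb. The list holds no value of the input, so these shares could not be set beside it.

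**Figure D3:**
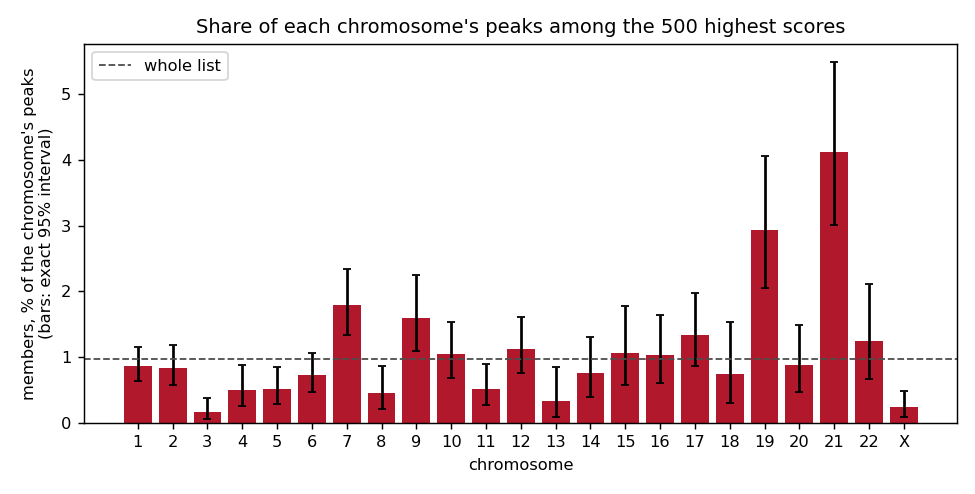
Members as a percent of all peaks on each chromosome, with exact 95% binomial intervals; the dashed line is the share over the whole list. Chromosomes 21 (4.12%) and 19 (2.93%) are highest, and chromosomes 3 (0.164%) and X (0.237%) lowest.

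Members crowded toward chromosome ends. Within 5 Mb of an end lay 167 of 485 members, or 34.4% (30.2 to 38.8), against 27.8% of the next 500 (23.9 to 31.9) and 10.3% of the rest (10.0 to 10.6). Within 2 Mb the shares were 16.9%, 13.7% and 4.11%, and within 1 Mb 5.77%, 5.63% and 1.86%. The end was taken as the last peak or gene locus on the chromosome. The share was higher for members than for the rest on 20 of 23 chromosomes; on chromosomes 3, 13 and 18 no member (0) was that close to an end. Without chromosomes 7, 17 and 21 it was 30.5% of 364 members, against 9.64% of the rest.

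The crowding was mostly at the far end of the chromosome. Within 5 Mb of the last end were 140 members (28.9%), against 19.1% of the next 500 and 6.59% of the rest. Within 5 Mb of the first base were 27 members (5.57%), against 8.65% of the next 500 and 3.70% of the rest. Chromosomes 13, 14, 15, 21 and 22 have no peak of any rank in their first 5 Mb, so they could not count at that end. In 5 Mb windows, 193 of the 603 windows with a peak had a member, and the 10 with most members held 102 members among 1539 peaks. The windows at 40 to 45 Mb on chromosome 21 and at 155 to 160 Mb on chromosome 7 had 19 members each, of 210 and 217 peaks. The window from 80 Mb on chromosome 17 had 12 of 106, and that from 165 Mb on chromosome 6 had 10 of 195.

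These shares changed gradually down the ranks. From the members through the next 500 and the ranks 1001 to 2500, 2501 to 5000, 5001 to 10000, 10001 to 20000 and 20001 to 51446, the share within 5 Mb of an end was 34.4%, 27.8%, 23.2%, 17.9%, 12.9%, 10.3% and 8.37%. The share within 1 kb of a RefSeq gene start was 5.04%, 5.08%, 3.79%, 3.17%, 2.71%, 2.29% and 1.48%. No break set the members apart from the ranks just below them in either measure.

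**Figure D4:**
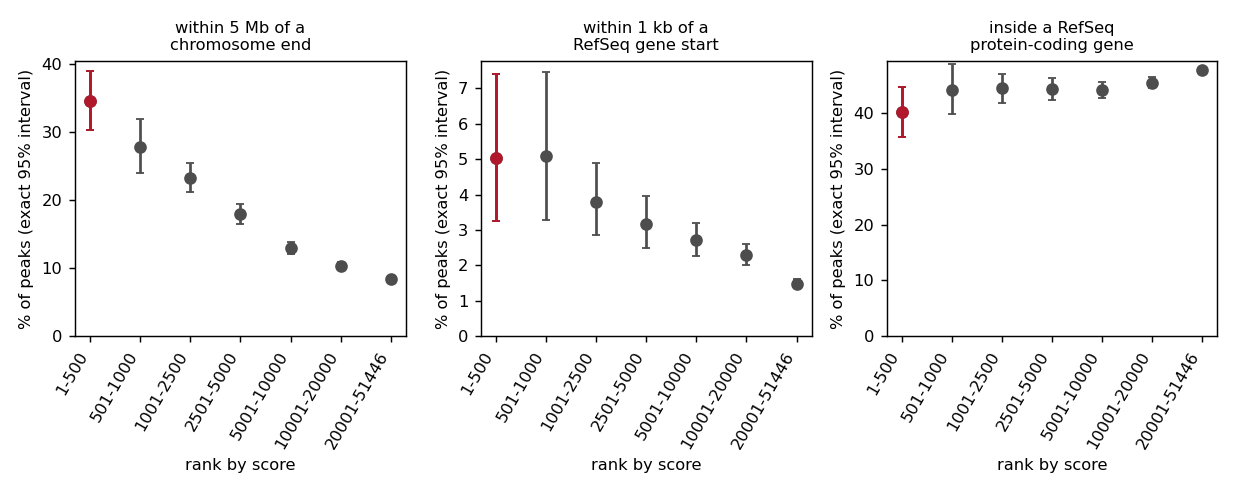
Percent of peaks within 5 Mb of a chromosome end (left), within 1 kb of a RefSeq gene start (middle) and inside a RefSeq protein-coding gene (right), by rank of score, with exact 95% binomial intervals. Members are red. The first share is 34.4% for members and 8.37% for the lowest ranks, and the third is 40.2% and 47.8%.

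Few members were close to each other. Within 10 kb of another member lay 40 members, or 8% (5.78 to 10.7), and 3.60% of the next 500 lay that close to another of their own set (2.15 to 5.63). At 100 kb the shares were 25.4% and 16.6%. The rest is a far denser set, so it is compared by any neighbour in the list: 42.8% of members had a peak of any rank within 10 kb, against 40% of the next 500 and 35.2% of the rest. Members formed 19 groups, 17 of them pairs, and 460 members stood alone.

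The 2 groups of 3 were both ribosomal. One was the group after RNA45SN2, at chr21:8219803-8234711, and the other the 3 members just behind RNA45SN4, which lay within 3458 bases of the contig. By summed score the pairs that came next were those in CDHR2 (126.3 and 48.5), in SLC38A10 (71.2 and 38.55), at chr22:49973094-49975979 (59.1 and 49.05) and at chr17:81793067-81794456 (58.6 and 48.1). They were followed by the pairs in PTPRN2 (61.4 and 44.6), at chr14:105563447-105570832 (57.05 and 43.9), at chr10:131882816-131890888 (57.8 and 42.9) and at chr4:189233766-189235350 (52.2 and 47.5). All 8 of these pairs lay on standard chromosomes, and 3 of them lay within a RefSeq gene.

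Members were a little wider than other peaks. Their median width was 422.5 bases (414 to 432, an order-statistic interval), against 409 for the next 500 and 406 for the rest (406 to 407). The most frequent width of the list, 402 bases, was that of 37.6% of members, 45.6% of the next 500 and 47.1% of the rest, and widths over 500 bases were found in 22%, 16.2% and 13.4%. The widest member had 720 bases and the widest of the rest 722. Width may enter the score, so it is not independent of the choice of members. Ranking by score divided by width gave a set of 500 with a median of 402 bases.

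The list also carries, for each replicate, the running number of the peak on its chromosome in that replicate's own list. These numbers fell as the averaged score rose, with Spearman's rho on 23 chromosomes of −0.940 to −0.836 for one list and −0.950 to −0.819 for the other, across peaks. Since that score chose the members, low numbers in both lists follow from the choice and are no sign of agreement between replicates. The median number was 19.5 in one list and 16 in the other for members, 53 and 48 for the next 500, and 2345 and 2474 for the rest. Of the first 10 members 9 had the same number in both lists, as did 34 of all 500, and the highest difference among members was 300. Members on KI270733.1 carried numbers of up to 10, although the list has 5 peaks there. The only mitochondrial peak was number 2 in both lists. Peaks with the other numbers are absent from this list and could not be placed.

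The share of members inside genes was below that of the rest. Inside RefSeq protein-coding genes were 195 of 485 members, or 40.2% (35.8 to 44.7), against 44.3% of the next 500 (39.8 to 48.8) and 46.7% of the rest (46.2 to 47.1). The loci of the RNA tables, which can hold several genes, contained 48.6%, 51.2% and 57.5%. Long non-coding RNA genes contained 14.6%, 13.9% and 15%, which differ by less than their intervals. Of 20037 protein-coding genes 177 had a member (0.883%), and 43.2% had a peak of any rank. Genes with a member had a median length of 95.3 kb, those with lower peaks alone 63.7 kb and those without a peak 11.6 kb.

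Members were repeated in few genes. PTPRN2, which encodes a receptor-type phosphatase of secretory granules near the end of chromosome 7, had 8 members of its 65 peaks, with scores of 39.85 to 61.4. It spans 1048.768 kb, and 5 of the 8 lay between 157771815 and 157839698. ROR2, a receptor tyrosine kinase for Wnt5a, had 3 of 14 in the RefSeq gene, at 45, 111 and 131 kb from its start. The RNA tables' locus of ROR2 had 4 of 27. PDE9A, a cyclic GMP phosphodiesterase, had 3 of 7, and GSE1, a component of a histone deacetylase complex, had 3 of 23. In all, 14 protein-coding genes had 2 or more members. Of 566 genes named ZNF, most of which encode zinc finger proteins, 1 had a member and 208 had a peak. Over all protein-coding genes 0.883% had a member and 43.2% a peak. The lengths of the ZNF genes were not compared.

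Genes on 4 lists, chosen for their repeats or known G-quadruplexes, were looked up. No ribosomal RNA gene or pseudogene had a member or a peak (0 of 548), counting centres inside the gene. Of all 15580 RefSeq pseudogenes, 15368 had no peak and 4 had a member, and those without a peak had a median length of 0.647 kb. The lengths of the 548 were not compared, so their 0 is not read as a trait of ribosomal RNA genes. Of 382 genes in tandem repeat families, such as NBPF and GOLGA members and mucins, 33 had a peak (55 peaks) and 0 a member. Over the whole list 500 of 51446 peaks were members, so 0 of 55 is near that share. Of 21 genes known for G-quadruplexes in their promoters 11 had a peak, and EGFR and BCL2 had 1 member each. Of all protein-coding genes 43.2% had a peak and 0.883% a member. Both members lay far inside the gene, 186 kb after the start of EGFR, the receptor for epidermal growth factor, and 121 kb after that of BCL2, an inhibitor of apoptosis. Of 23 genes with subtelomeric or minisatellite repeats or in imprinted clusters 21 had a peak (347 peaks). PTPRN2, CACNA1B and CDH4 had 12 members together, of which 8 were in PTPRN2 alone. Beside these counts, 43.2% of all protein-coding genes had a peak and 0.883% a member, and 500 of all 51446 peaks were members. Some genes of this list are very long, such as RBFOX1 (2474 kb) and CSMD1 (2060 kb). Protein-coding genes with lower peaks alone had a median of 63.7 kb. The part of length in these counts was not tested. CACNA1B, a neuronal calcium channel subunit, had members 23.2 and 71.1 kb into the gene. CDH4, a cadherin, had them at 192 and 606 kb.

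Gene starts were nearer to members than to the rest, and gene starts were denser around them. The nearest RefSeq start lay at a median of 21.1 kb from a member (18.6 to 24.3), against 22.3 kb for the next 500 and 34.3 kb for the rest (33.8 to 34.8). Within 1 kb were 24 of 476 members, or 5.04% (3.26 to 7.41), against 5.08% of the next 500 and 1.95% of the rest (1.83 to 2.07). Of those 24, 12 lay downstream of the start. A median of 19.5 gene starts lay within 500 kb of a member, against 18 and 13. Within 10 Mb of a chromosome end the median was 21 for members and 18 for the rest, and farther away 17 and 12. The share within 1 kb of a start was 5.06% for members and 2.38% for the rest near the ends, and 5.02% and 1.85% away from them. The 300-base promoter windows themselves were overlapped by 0.630% of members, 1.48% of the next 500 and 0.380% of the rest.

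RNA was compared only for loci that hold 1 protein-coding gene. Such a locus can also hold non-coding genes, and its member need not lie inside the protein-coding one. Of 127 protein-coding genes alone in a locus with a member, 69 reached 1 FPKM in control cells (54.3%, 45.3 to 63.2). The share was 64.7% for loci with lower peaks alone and 51.4% for those with no peak. Loci under 30 kb gave 40.9% of 22 genes, 52.2% of 1241 and 45.5% of 4948, and loci of 30 to 100 kb gave 66.7% of 39, 68.2% of 2223 and 70.5% of 1364. Loci of 100 to 300 kb gave 57.1% of 42, 73.4% of 1653 and 67.0% of 221, and longer ones 41.7% of 24, 54.3% of 610 and 37.5% of 16. FPKM values in the authors' deposited tables are pooled over the replicates of a condition, so no spread between replicates can be given. "Called" below means a q-value under 0.05 in the authors' deposited table. Fold changes are log2 of PDP over control FPKM, and the 3 times share their control cells. In bulk RNA fewer cells with a transcript and less of it per cell cannot be told apart.

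At 3 h few genes were called anywhere. Over all genes tested 0.115% were called, 0.108% higher and 0.00678% lower in PDP cells, and 0.0559% of expressed protein-coding genes alone in their locus. Of the expressed genes in member loci 0 of 70 were called, against 1 of 3720 in loci with lower peaks alone. A count of 0 of 70 has an interval that reaches 5.13%.

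At 24 h 15 of 74 expressed genes in member loci were called (20.3%, 11.8 to 31.2), where 17.5% of all genes tested were called and 24.1% of expressed protein-coding genes alone in their locus. The share called was therefore close to the background. All 15 were higher in PDP cells and 0 lower. Genes counted as expressed had a geometric mean of PDP and control FPKM of at least 1, and 2 of the 15, ROR2 and ABCG1, had under 1 FPKM in control cells and passed through their higher PDP value. With at least 1 FPKM in control cells instead, a filter added after seeing the data, 13 of 69 were called, 13 higher and 0 lower, against 429 higher and 343 lower in loci with lower peaks alone. In loci with lower peaks alone 485 were higher and 340 lower among 825 called of 3813, and over all genes tested 9.21% were called higher and 8.29% lower. The median log2 fold change was 0.34 in member loci, 0.04 in loci with lower peaks and −0.10 in loci without a peak. The medians of control FPKM also differed, at 7.37, 12.4 and 18.5, and so did those of locus length, at 100.3, 81.2 and 18.9 kb. Their part in the fold changes was not tested.

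At 72 h 32 of 71 were called (45.1%, 33.2 to 57.3), where 31.8% of all genes tested and 42.0% of expressed protein-coding genes alone in their locus were. Of the 32, 24 were higher and 8 lower in PDP cells. Loci with lower peaks alone had 956 higher and 537 lower, and of all genes tested 19.0% were called higher and 12.8% lower. The medians of the log2 fold change were 0.22, 0.14 and 0.06. Of the 32 called, 3 had under 1 FPKM in control cells and 1 had under 1 FPKM in PDP cells. With at least 1 FPKM in control cells 30 of 69 were called, 21 higher and 9 lower, and the medians were 0.11, 0.11 and 0.03.

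**Figure D5:**
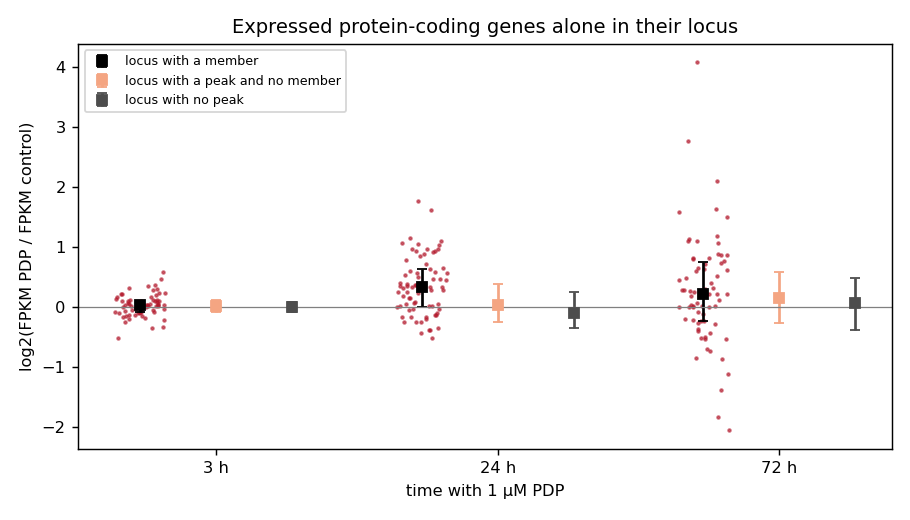
Log2 of PDP over control FPKM at 3 h, 24 h and 72 h for expressed protein-coding genes alone in their locus. Red points are single genes in loci with a member; squares are medians and bars the quartiles of each set. At 24 h the median is 0.34 in loci with a member, 0.04 in those with lower peaks and −0.10 in those with no peak.

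Of the 20 such loci with the highest members, 10 reached 1 FPKM in control cells. Called were 0 of 13 tested at 3 h, 3 of 14 tested at 24 h and 6 of 14 tested at 72 h, beside 0.115%, 17.5% and 31.8% of all genes tested. ROR2 had 2.95 FPKM in PDP cells at 24 h, against 0.870 FPKM in control cells, a log2 fold change of 1.76 (q = 0.000908 in the authors' deposited table). At 72 h it had 3.46 FPKM with PDP, against 0.812 FPKM in control cells (2.09). ABCG1, a cholesterol exporter, had 2.30 FPKM in PDP cells and 0.747 FPKM in control cells at 24 h (1.62). At 72 h it had 1.97 FPKM with PDP and 0.697 FPKM without (1.50). TNS3, a tensin of focal adhesions, had smaller changes, 0.63 at 24 h and 0.86 at 72 h. All 3 genes were called higher with PDP at both times, against the same control cells.

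The other called loci of these 20 were seen at 72 h alone. SLC38A10, an amino acid transporter that held a pair of members, fell to 6.76 FPKM in PDP cells, against 24.1 FPKM in control cells (−1.84, q = 0.000393 in the authors' deposited table). MLXIP, a glucose-sensing transcription factor, whose member was the highest of these loci at 76.45, had 35.4 FPKM with PDP and 22.8 FPKM without (0.64). CNNM4, a magnesium transporter, had 12.5 FPKM with PDP and 7.15 FPKM without (0.80). PTPRN2, with the most members, stayed under 0.1 FPKM in every condition and was not tested in the authors' deposited table.

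Among the genes known for promoter G-quadruplexes, EGFR had 4.73 FPKM in PDP cells at 24 h, against 2.88 FPKM in control cells (0.71, q = 0.0269 in the authors' deposited table). At 72 h it had 1.50 FPKM, against 2.69 FPKM (−0.85, q = 0.0390 there). BCL2 had 5.05 FPKM in PDP cells at 72 h, against 1.62 FPKM in control cells (1.64). Outside these choices, the following were picked after their values were seen, as 3 of the largest changes in member loci at 72 h. CELF4, a neuronal RNA-binding protein, had 4.20 FPKM in PDP cells and 0.249 FPKM in control cells (4.08), and it counted as expressed only through its PDP value. RUNX1, a transcription factor of blood formation, had 7.01 FPKM and 1.03 FPKM (2.76). The member in its locus of 1216.867 kb lay in the long non-coding RNA gene LOC101928269 and not in the RefSeq gene RUNX1. TTLL11, a tubulin polyglutamylase, had 0.954 FPKM and 3.97 FPKM (−2.06).

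A wider view took all genes in the 216 loci of the RNA tables with a member, where a locus could hold many genes. There 1 of 218 tested genes was called at 3 h (0.459%), 34 of 228 at 24 h (14.9%) and 63 of 224 at 72 h (28.1%), against 0.115%, 17.5% and 31.8% of all genes tested.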

How the data were processed

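The pull-down libraries were made from genomic DNA and the RNA libraries from poly(A) RNA, per the labels' protocols. Per the submitters' processing notes the build was GRCh38.p7. The tools they list are HOMER 4.9.1, Cufflinks 2.2.1, HISAT2 2.0.5, Bowtie2 2.2.9, Trim Galore 0.4.4, Picard and SAMtools 1.3.1, with no settings. The deposited peak list gives a score, averaged over both replicates, with no unit and no counts, so depth per library is unknown. The authors' deposited FPKM are pooled per condition; the p-value and q-value are those of the authors' table. No new test was run.

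Peaks were placed by their centre, and width was end minus start. Protein-coding genes, gene starts and promoters came from RefSeq GRCh38.p14; 12386 of 12387 genes overlapped their locus in the RNA tables. Of 58083 gene IDs 56980 matched a symbol. Starts on chromosome 8 were not used. Expressed genes had a geometric mean of PDP and control FPKM of 1 or more. Members were joined within 10 kb. Acrocentric short arms ended at fixed limits, 10 Mb on chromosome 21.

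Members and lists were chosen with earlier results of these data known. Named were the 10 highest members, the 2 members and 2 other peaks at the limit (1 place is not reported here), the 10 largest groups, loci with 4 or more members, called genes among the 20 single-gene loci with the highest members, overlapped promoters and overlapped list genes; other named genes were chosen after their values were seen. Steps were tested on simulated data. Software was Matplotlib 3.10.9, SciPy 1.17.1, pandas 2.3.3, NumPy 2.4.6 and Python 3.11.15.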

Additional observations from a re-analysis of the deposited data

How the results depend on the processing

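Of 44 alternatives, 37 stayed within the interval of the value reported. Among them were those with the 250 and the 1000 highest scores, run for the share off the standard chromosomes, the short arms, groups, width, loci of the RNA tables, ends within 1 Mb and called genes, and for no other value. A control FPKM of at least 1, added after seeing the data, was also among them. Some of the 37 could not have moved. With 0 genes called at 3 h, a q of 0.01, an FPKM minimum of 5 and the 250 highest scores could only give 0. The sets of 250 and 1000 also share peaks with the members, so the count of 37 is no measure of robustness. The other 7 alternatives left the interval. Restricting the list to chromosomes 1 to 22 and X left 0% off the standard chromosomes by definition, against 3.0%. Lowering the short-arm limits by 2 Mb left 0%, against 1.4%, because the limit on chromosome 21 then lies before the 45S copies. Joining members at 1 kb gave 2.8% in groups and at 100 kb 25.4%, against 8.0%. Ranking by score divided by width gave a median width of 402 bases, against 422.5. Within 5 Mb of an end lay 34.4% of members, against 5.77% within 1 Mb. At the authors' deposited q of 0.01, 32.4% of genes in member loci were called at 72 h, against 45.1% at 0.05. No paired analysis was possible because the peak list and the FPKM are pooled over replicates. For the same reason no replicate could be left out. The list gives no counts of reads and no value of the input, so no depth can be set beside a score.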
